A study of Mus musculus with 15 samples.

Results

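The genes described here are those of MHC class II antigen presentation: H2-Aa, H2-Ab1, H2-Eb1, H2-DMa, H2-DMb1, Cd74 and Ciita. They were taken by name, as the probes whose accession maps to 1 of these 7 symbols in RefSeq. A probe was found for 6 of the 7 genes, and these 6 held 10 of the 41174 probes on the array. No probe was matched to H2-Eb1, so it has no value here. Every gene below is given by its brightest probe, and the other 4 probes (1 more for H2-Aa, 2 for H2-Ab1 and 1 for H2-DMb1) are given where they differ. All 10 probes were well above background on all 15 arrays, so all 6 genes were among the 28358 probes tested.

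Heart RNA came from male and female C57BL/6 mice that were 8 to 10 weeks old at the start. They received methamphetamine hydrochloride (meth) by weekly intraperitoneal injection for 5 months, with the dose rising by 2 mg each week over 20 weeks to 40 mg/kg, or PBS on the same schedule. There were 4 male meth, 4 male PBS, 4 female meth and 3 female PBS hearts, 1 mouse to an array. The males of each treatment came from 2 trials, 2 mice to a trial. By the sample titles all females were in trial 1, but a second label field assigns 3 of them, meth mice 3 and 4 and PBS mouse 3, to trial 2. Values are the log2 of the background-subtracted Cy3 intensity minus the 75th percentile of that array, so a value of 0 is a signal at that percentile. All 7 cardiomyocyte genes listed were well above background on every array. Of the 6 airway epithelial genes with a probe, 5 were also above background on every male meth array, as described below.

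MHC class II molecules are pairs of an alpha and a beta chain that carry peptides from the endosome to the surface of antigen-presenting cells, where CD4+ T cells read them. Dendritic cells, macrophages and B cells carry them at rest, cardiomyocytes do not, and interferon gamma can bring them out in other cells. The genes lie together on chromosome 17, apart from the invariant chain and the coactivator that turns the whole group on, and their promoters share a pair of motifs, the X box and the Y box, through which that coactivator acts.

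On chromosome 17 of build GRCm38.p6, RefSeq places H2-DMa at 34119693 to 34139101, H2-DMb1 at 34153191 to 34160229, H2-Ab1 at 34263227 to 34269418, H2-Aa at 34282744 to 34287823 and H2-Eb1 at 34305867 to 34316674. Ciita lies on chromosome 16 at 10480014 to 10531064, and Cd74 lies on neither of these chromosomes. The promoter table held windows for 4 of the 7 genes, and H2-Ab1, Cd74 and Ciita were not in it. The 150 bases just before the start of 3 of these genes are shown, namely those whose windows held the letters of both motifs. Whether the motifs bear on the levels measured here was not tested. H2-Eb1, which has no array value, is shown as the promoter of the remaining chain. Capitals mark the letters GNAACT of the X box and TGATTGG of the Y box, each on the strand printed, 5′ to 3′. Both strings were chosen after the promoters had been read.
H2-Aa (chr17:34287824-34287973, minus strand): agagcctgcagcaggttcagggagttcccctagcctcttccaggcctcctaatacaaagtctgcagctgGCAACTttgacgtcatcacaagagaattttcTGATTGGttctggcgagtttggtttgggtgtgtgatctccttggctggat
H2-DMb1 (chr17:34153041-34153190, plus strand): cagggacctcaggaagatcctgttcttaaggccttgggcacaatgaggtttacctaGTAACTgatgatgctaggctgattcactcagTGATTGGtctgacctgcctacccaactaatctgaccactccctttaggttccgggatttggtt
H2-Eb1 (chr17:34305717-34305866, plus strand): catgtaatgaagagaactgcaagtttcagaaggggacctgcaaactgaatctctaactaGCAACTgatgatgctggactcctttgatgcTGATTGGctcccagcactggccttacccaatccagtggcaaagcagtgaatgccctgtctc

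The X box letters came first in all 3, followed by the Y box letters after 25 bases in H2-Aa and H2-DMb1 and after 24 in H2-Eb1. Over the 250 bases before the start of 32851 RefSeq promoters, 37.3% held GNAACT and 7.23% held TGATTGG on either strand. Both letters in this order, on 1 strand and 15 to 35 bases apart, were in 57 promoters, or 0.174%. The strings were chosen after these promoters were read and the range spans their spacing, so the 3 shown are necessarily among the 57. This share therefore does not measure how unusual the class II promoters are. The 2 H2-DMa windows, which belong to starts inside the span of the gene, held neither string. A match in these letters is a description of the sequence and not a measurement of binding.

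No class II gene passed the test for a difference between meth and PBS hearts in either sex. Their mean levels were above PBS in meth males and below PBS in meth females, for all 6 genes measured. These differences lay within the spread between mice. Under normexp background correction it was 5 of 6 in females, where Ciita turned. On the trial 1 arrays alone 2 of 6 were above PBS in meth males, with a median log2 difference of -0.0058. In meth females 2 of 6 were above PBS without meth mouse 2 or without PBS mouse 3. The levels also differed from mouse to mouse, most widely in the meth females, where mice 1 and 4 lay above the mean of their group and mice 2 and 3 below it for all 6 genes, though narrowly so for mice 1 and 3 in Cd74. These are whole hearts, so fewer class II cells and less class II RNA per cell cannot be told apart.

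**Figure D1:**
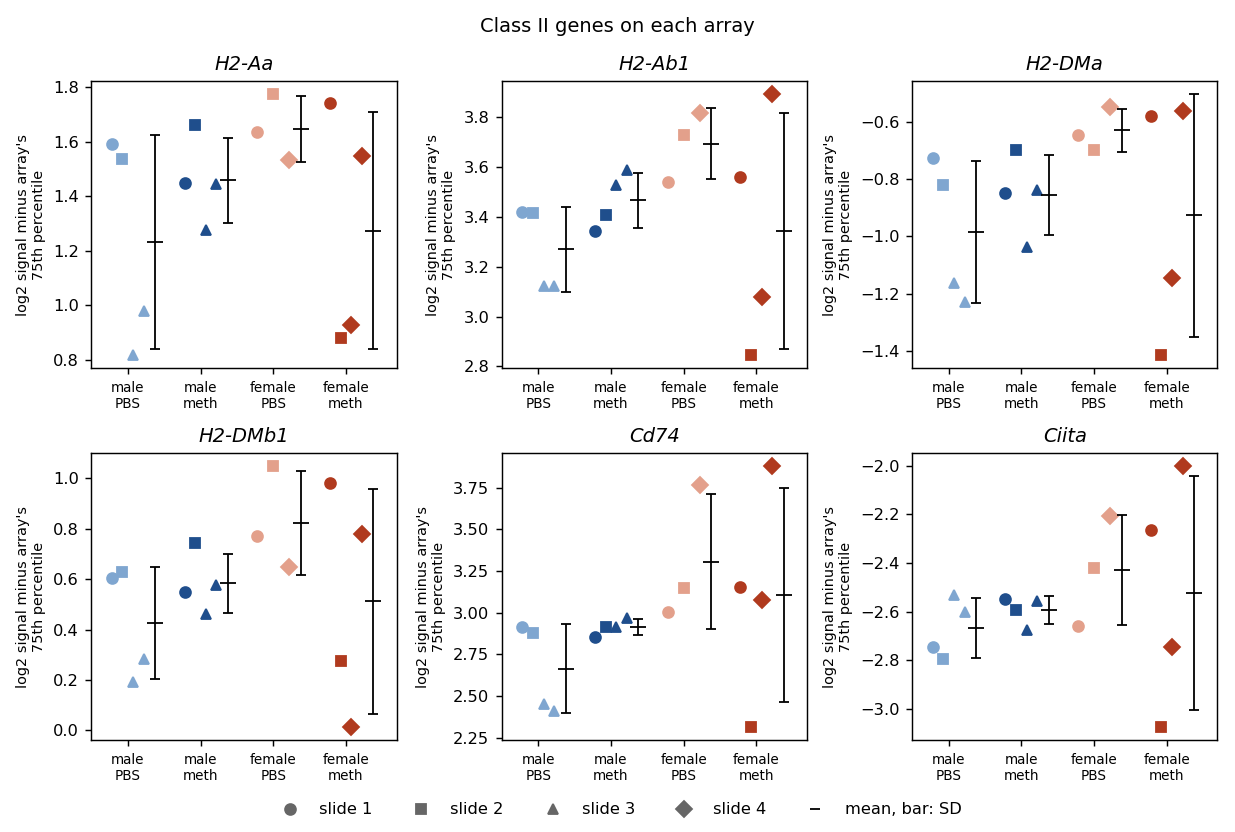
Normalized log2 signal of each class II gene (y axis, log2 signal minus the 75th percentile of the array) on every array of the 4 groups (x axis), with the symbol giving the slide and the black bar the mean with its SD. Female meth mice 2 and 3 lie below their group's mean for all 6 genes, and the male PBS mice of trial 2 (slide 3) lie below those of trial 1 for every gene except Ciita.

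H2-Aa and H2-Ab1 encode the alpha and beta chains of I-A, the class II molecule of this strain. H2-Aa measured 1.59 and 1.54 in the male PBS mice of trial 1 and 0.82 and 0.98 in those of trial 2, and 1.45, 1.66, 1.28 and 1.45 in the male meth mice. The females measured 1.64, 1.78 and 1.53 after PBS and 1.74, 0.88, 0.93 and 1.55 after meth. The 3 female PBS hearts sat close together, whereas the 4 female meth hearts split into a pair at their level and a pair far below it, and the groups overlapped in both sexes.

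The mean of H2-Aa was 1.46 ± 0.16 (SD, n = 4) in male meth and 1.23 ± 0.39 (n = 4) in male PBS hearts, a log2 difference of 0.23 with a standard error of 0.18 and a 95% interval of -0.17 to 0.62 (limma, adjusted p = 0.658). In females it was 1.27 ± 0.44 (SD, n = 4) after meth and 1.65 ± 0.12 (n = 3) after PBS, a log2 difference of -0.37 with a standard error of 0.20 and a 95% interval of -0.80 to 0.054 (limma, adjusted p = 0.532). Neither difference passed the test, and the exact permutation p over the arrays was 0.371 in males and 0.286 in females.

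H2-Ab1 measured 3.42, 3.42, 3.12 and 3.12 in male PBS, 3.34, 3.41, 3.53 and 3.59 in male meth, 3.54, 3.73 and 3.82 in female PBS and 3.56, 2.84, 3.08 and 3.89 in female meth hearts. Meth mice 1 and 4 were again the high pair among the females, and every male PBS heart lay below every female PBS heart. The log2 difference between meth and PBS was 0.20 (SE 0.19, 95% interval -0.21 to 0.61) in males and -0.35 (SE 0.20, 95% interval -0.80 to 0.094) in females, with limma adjusted p of 0.725 and 0.594.

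Cd74 is the invariant chain, which fills the groove of a new class II molecule and steers it to the endosome. It measured 2.91, 2.88, 2.45 and 2.41 in male PBS, 2.85, 2.91, 2.91 and 2.97 in male meth, 3.01, 3.15 and 3.76 in female PBS and 3.15, 2.31, 3.08 and 3.88 in female meth hearts. The male meth hearts were the tightest group (SD 0.048) and the female meth hearts the widest (SD 0.64). The highest heart of each female group, meth mouse 4 and PBS mouse 3, came from the same slide, slide 4. The other heart on that slide, meth mouse 3, was at 3.08, below meth mouse 1 on slide 1 (3.15). The log2 difference between meth and PBS was 0.25 (SE 0.27, 95% interval -0.33 to 0.83) in males and -0.20 (SE 0.29, 95% interval -0.83 to 0.43) in females. In females its sign rested on single mice, at 0.064 without female meth mouse 2 and 0.029 without female PBS mouse 3.

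H2-DMa and H2-DMb1 form H2-DM, which exchanges the invariant chain fragment for peptide in the endosome. H2-DMa measured -0.73, -0.82, -1.16 and -1.23 in male PBS, -0.85, -0.70, -1.04 and -0.84 in male meth, -0.64, -0.70 and -0.54 in female PBS and -0.58, -1.42, -1.15 and -0.56 in female meth hearts. H2-DMb1 measured 0.61, 0.63, 0.19 and 0.28 in male PBS, 0.55, 0.74, 0.46 and 0.58 in male meth, 0.77, 1.05 and 0.65 in female PBS and 0.98, 0.28, 0.012 and 0.78 in female meth hearts. In both chains meth females 1 and 4 were the high pair and 2 and 3 the low pair, and in both the trial 2 mice were the low pair of male PBS hearts. The log2 difference between meth and PBS in males was 0.13 (SE 0.17) for H2-DMa and 0.16 (SE 0.18) for H2-DMb1. In females it was -0.30 (SE 0.18) and -0.31 (SE 0.19), with limma adjusted p of 0.611 and 0.630. H2-DMb2 is a near copy of H2-DMb1, and how far its RNA binds the H2-DMb1 probes was not tested.

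Ciita is the coactivator on which expression of the other class II genes depends. It measured -2.74, -2.79, -2.53 and -2.60 in male PBS, -2.55, -2.59, -2.67 and -2.56 in male meth, -2.66, -2.42 and -2.21 in female PBS and -2.26, -3.08, -2.75 and -2.0 in female meth hearts. The female meth hearts split as for the other genes, while among the male PBS hearts those of trial 1 were the low pair, the reverse of the others. Its differences between meth and PBS were the smallest of the 6, at 0.075 (SE 0.19, 95% interval -0.34 to 0.49) in males and -0.094 (SE 0.21, 95% interval -0.54 to 0.35) in females on the log2 scale. Its sign in females was not stable, at 0.13 under normexp background correction, 0.090 without female meth mouse 2 and 0.017 without female PBS mouse 3.

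With limma, 0 of the 6 genes passed an adjusted p of 0.05 between meth and PBS in males, where 1.11% of all probes tested did. In females it was 0 of 6, against 0.758% of all probes. None had an unadjusted p under 0.05 in either sex, with limma (12.8% of all probes in males and 11% in females) or with the methods' t-test, paired or unpaired. In females 2 of 6 did with the replicate block in limma (14.7% of all probes). It was 3 of 6 without female meth mouse 1 or mouse 4 (3547 and 3051 of 28358 probes), and 1 of 6 under normexp (1304 of 28358 probes). The median log2 difference of the 6 genes was 0.18 in males and -0.30 in females, beside -0.032 and 0.00065 over all probes tested. The female median was -0.16 without meth mouse 2, with 2 of 6 genes then above PBS, and -0.44 without meth mouse 4. All 10 probes gave the same signs as the brightest ones, higher in 10 of 10 in males and in 0 of 10 in females. For the mean of both sexes 0 of 6 passed with limma, with 0 under an unadjusted p of 0.05 (15.3% of all probes), where 2.65% of all probes passed. The median was -0.075, and -0.13 to 0.0021 with each mouse left out.

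**Figure D2:**
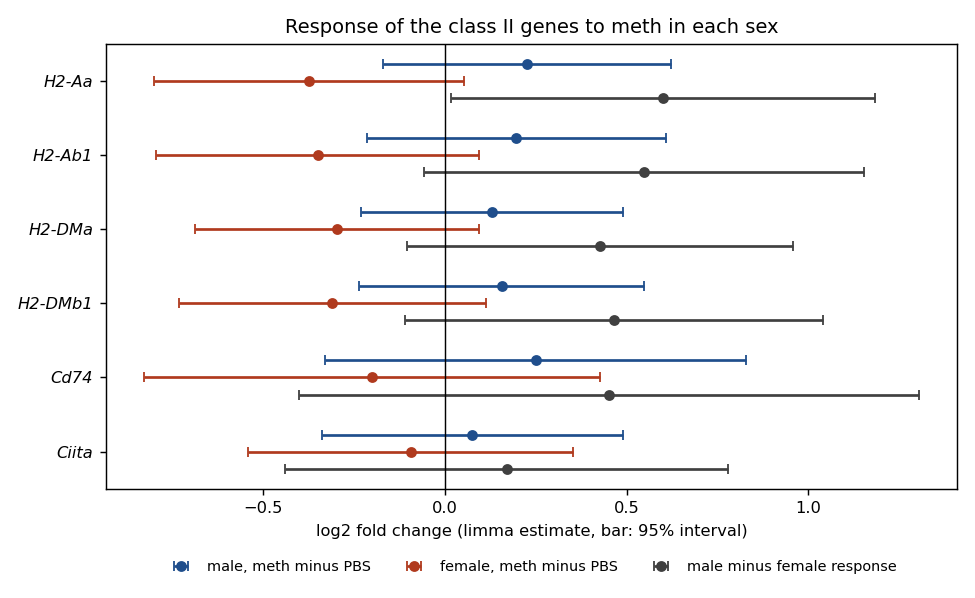
Log2 difference between meth and PBS hearts (x axis) for each class II gene (y axis) in males, in females, and the male minus the female difference, as limma estimates with 95% intervals. The male estimates lie at 0.075 to 0.25 and the female ones at -0.37 to -0.094, and all 12 of these intervals include 0 (under normexp the female Ciita estimate was 0.13). Some signs also turned on the arrays of a single trial or without single mice, as given in the closing section.

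Whether the meth response differed by sex was tested as an interaction. The male response minus the female response was above 0 for all 6 genes (not for Ciita under normexp, -0.11), with a median of 0.46 on the log2 scale against -0.015 over all probes. It was 0.60 (SE 0.27, 95% interval 0.018 to 1.18) for H2-Aa, 0.55 (SE 0.28) for H2-Ab1, 0.47 (SE 0.27) for H2-DMb1, 0.45 (SE 0.39) for Cd74, 0.43 (SE 0.24) for H2-DMa and 0.17 (SE 0.28) for Ciita. With limma 0 of 6 passed after adjustment, where 0.138% of all probes did. H2-Aa alone had an unadjusted p under 0.05 (adjusted p = 0.569 with limma), where 8.67% of all probes did. Without female meth mouse 1 it was 3 of 6 (2879 of 28358 probes) and without mouse 4 it was 4 of 6 (2829 of 28358). Without mouse 2 or mouse 3 it was 0 of 6 (2455 and 2100 of 28358), as also without several other single mice. Of the 10 probes, 4 had an unadjusted p under 0.05, and their lowest adjusted p was 0.564. With the replicate number as a block the median rose to 0.62 and 4 of the 6 genes had an unadjusted p under 0.05 (14.7% of all probes), with an adjusted p of 0.305 or more, and 0 probes of any gene passed.

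Among PBS hearts the class II genes were lower in males than in females for all 6 genes. Every male PBS heart lay below every female PBS heart for 4 of the 6, namely H2-Ab1, H2-DMa, H2-DMb1 and Cd74, which was so for 7.89% of all probes. Of all 10 probes, 6 showed this separation: it was seen for the other probe of H2-Aa, and not for 1 of the 3 probes of H2-Ab1 or for the second probe of H2-DMb1. The exact permutation p was 0.0286 for H2-Ab1 and Cd74, the smallest that 4 against 3 arrays can give, and 0.0857 for H2-DMa and H2-DMb1, out of 24 exact tests run over the members. In limma, with the trial as a covariate, the differences were -0.40 (SE 0.23) for H2-Ab1, -0.54 (SE 0.32) for Cd74 and a median of -0.27 for the 6, and 0 of 6 passed, where 0.48% of all probes did. None had an unadjusted p under 0.05 in that fit (15.2% of all probes), and the adjusted p ran from 0.424 to 0.685. The median was -0.24 on the trial 1 arrays alone, again with 0 of 6 higher in males, -0.41 without the trial term and -0.15 under the shift by the median. By the titles there were no female PBS hearts of trial 2.

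Between male and female meth hearts the order was mixed, with 4 of 6 genes higher in males, a median of 0.17 and 0 of 6 passing with limma (0 under an unadjusted p of 0.05, beside 18.5% of all probes), where 2.62% of all probes passed. All 6 were higher in males with slide or scan session as a block (median 0.27), without the slide 4 arrays (0.28) and without female meth mouse 4 (0.31), but 3 of 6 without female meth mouse 2 (0.019), and the median was 0.071 without the trial term. Their exact permutation p ran from 0.429 to 0.8. Female PBS hearts had the highest mean for every class II gene and male PBS hearts the lowest, with both meth groups between. Neighbouring groups in that order overlapped for every gene, except that the female PBS hearts lay above the male meth hearts for H2-DMa, by a hair (-0.696 against -0.698 for the nearest mice).

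**Figure D3:**
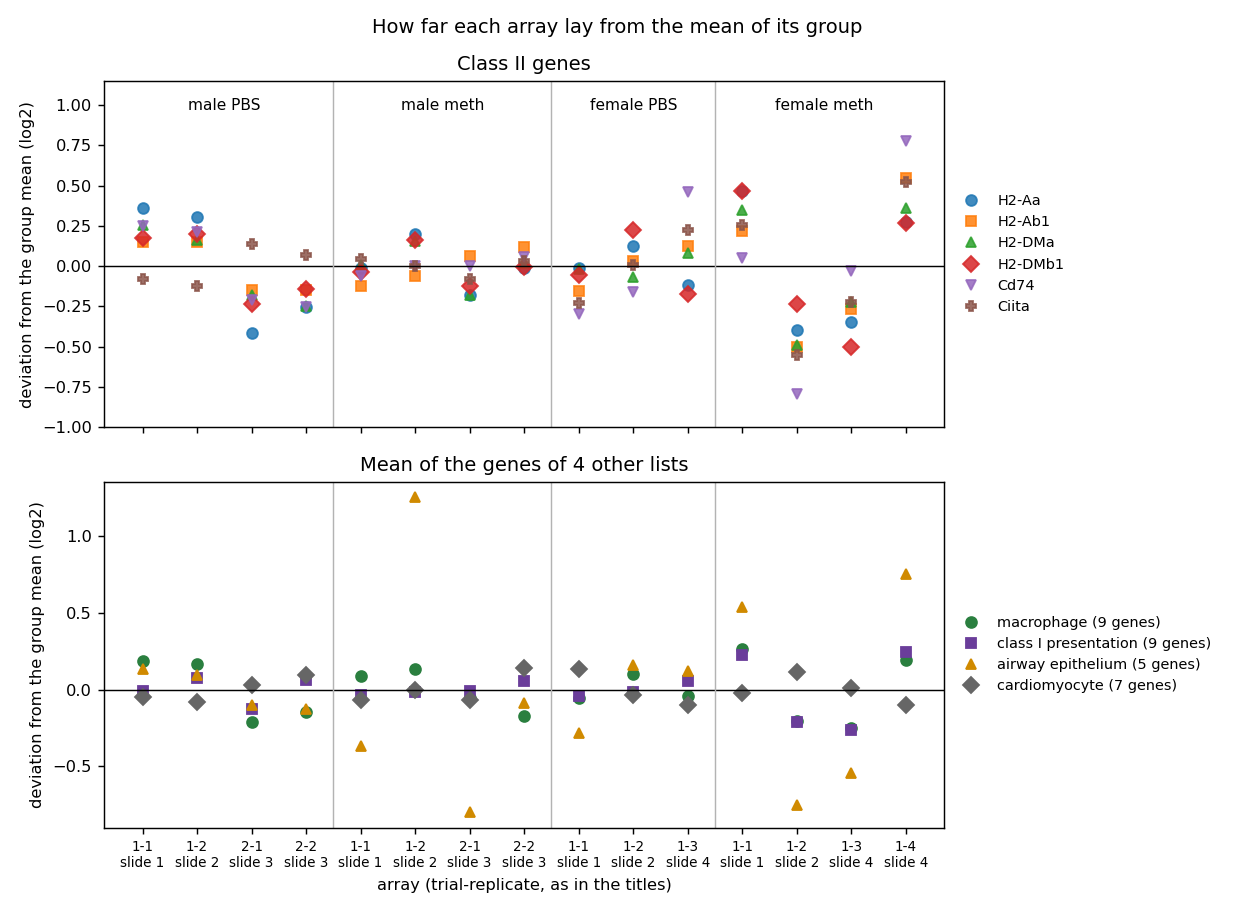
Deviation of each array from the mean of its group (y axis, log2) for the 6 class II genes (upper panel) and for the mean of 4 other gene lists (lower panel), with arrays along the x axis by trial, replicate and slide. Female meth mice 1 and 4 lie above their group's mean and mice 2 and 3 below it for all 6 genes, and the macrophage and class I lists move the same way on those 4 arrays.

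The spread between mice was then read over the class II genes jointly. Averaged over the 6 genes, female meth mice 1 and 4 lay 0.30 and 0.46 above the mean of their group on the log2 scale, and mice 2 and 3 lay at -0.49 and -0.26. Each of the 4 deviated in the same direction for all 6 genes, although for Cd74 mouse 1 was only 0.049 above and mouse 3 at -0.029. The SD of this average was 0.45 in female meth hearts, 0.20 in male PBS, 0.12 in female PBS and 0.071 in male meth hearts.

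Over the 15 arrays, as deviations from the group means, the 15 pairs of class II genes correlated with a median Pearson r of 0.76. The closest pair was H2-Aa with H2-DMb1 (r = 0.93) and the loosest H2-DMb1 with Cd74 (r = 0.41). Without the 2 arrays farthest from their group's mean, female meth mice 2 and 4, the median was 0.57 and the range 0.10 to 0.92 over 13 arrays. Without all 4 female meth arrays the median was 0.44 over 11 arrays and the lowest pair -0.49. These points share their arrays, slides and scaling, and the values are a description. Different probes of a gene moved together at r = 0.67 to 0.94.

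The slides gave different answers for the meth response. Within slide 1 the female meth heart was above the female PBS heart for 6 of 6 genes (log2 difference 0.022 to 0.39), within slide 2 for 0 of 6 (-0.90 to -0.66), and on slide 4, with 2 meth hearts and 1 PBS heart, their mean was higher for 0 of 6 (-0.33 to -0.17). In males the meth heart was higher for 1 of 6 genes on slide 1 (-0.14 to 0.20) and for 5 of 6 on slide 2 (-0.010 to 0.20). Slide 3, which held all trial 2 males, gave 5 of 6 higher (-0.050 to 0.51).

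The male difference was read in each trial as well. When each male trial had groups of its own in the fit, the H2-Aa response was -0.011 (SE 0.25) in trial 1 and 0.46 (SE 0.25) in trial 2. H2-Ab1 gave -0.043 and 0.44, Cd74 -0.012 and 0.51, H2-DMa -0.00077 and 0.26, H2-DMb1 0.029 and 0.28, and Ciita 0.20 and -0.050. With limma 0 of 6 passed in either trial or for the difference between the trials, where 0.3%, 0.356% and 0% of all probes did, and none had an unadjusted p under 0.05. The difference between the trials was 0.48 for H2-Aa with a 95% interval of -0.30 to 1.25, so a large trial effect and none are both inside it. Fitted on the 4 trial 2 arrays alone, 4 of the 6 genes had an unadjusted p under 0.05, beside 14.2% of all probes, and 0 passed. Trial, slide and scan session cannot be told apart in these 4 mice.

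Beyond the members, 10 genes tracked the average of the class II genes most closely over the 15 arrays, again as deviations from the group means and out of 14286 genes compared. They were Clec4a3, a lectin receptor of myeloid cells (r = 0.965), Ifi30, the thiol reductase that unfolds antigens in the endosome (r = 0.956), Abhd17b (r = 0.948), the class I heavy chain gene H2-D1 (r = 0.944), Cytl1 (r = 0.938), Gm11127 (r = 0.937), H2-Q2, a further class I gene (r = 0.936), Bin1 (r = 0.932), Hid1 (r = 0.930) and Cd52, a surface glycoprotein of leukocytes (r = 0.925). Over all genes the median r was -0.0049 and the 99th percentile 0.816. Without female meth mice 2 and 4 the 10 genes held r of 0.823 to 0.947 over 13 arrays. Class I genes are near copies of each other, so H2-D1, H2-Q2 and Gm11127 may share signal.

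Of the other genes of the pathway, 39 were tested, and 0 passed in males, 0 in females, 0 for the difference between the sexes and 0 between the PBS hearts with limma. At an unadjusted p under 0.05 these counts were 3, 3, 3 and 8, where 12.8%, 11%, 8.67% and 15.2% of all probes were. For the mean of both sexes 2 passed and rose, Ifi30 and Icosl, and between meth hearts 1 passed, Creb1, which was lower in males. Over all probes 2.65% and 2.62% passed in these comparisons, so both counts lie near the background.

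Ifi30 measured -0.32, -0.24, -0.36 and -0.39 in male PBS, 0.03, 0.19, 0.08 and 0.11 in male meth, -0.25, -0.15 and -0.14 in female PBS and 0.25, -0.21, -0.10 and 0.36 in female meth hearts. All male meth hearts lay above all male PBS hearts. In females meth mice 1, 3 and 4 stood above the PBS hearts, mouse 3 narrowly, and mouse 2 among them. Ifi30 is described because it passed on these arrays, and the share of all probes separated like this in males was not counted. For the mean of both sexes its log2 difference was 0.34 (SE 0.082, limma adjusted p = 0.0487), and it passed in 8 of 30 alternatives (adjusted p 0.0191 to 0.327). Icosl, a ligand of the T cell receptor ICOS, rose by 0.35 (SE 0.082, adjusted p = 0.0455) and passed in 11 of 30. With the replicate block neither passed (limma adjusted p = 0.0940 for Ifi30 and 0.0894 for Icosl).

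Creb1, a factor that binds within the X box region, was 0.34 lower on the log2 scale in male than in female meth hearts (log2 difference -0.34, SE 0.071, limma adjusted p = 0.0298), and passed in 11 of 23 alternatives. Its other 2 probes gave -0.29 and -0.18 and did not pass. In the same comparison the 9 genes of the promoter complex and of class II turnover, Creb1 included, ran from -0.37 to 0.20. Of these, 3 had an unadjusted p under 0.05 with limma, beside 18.5% of all probes. Between meth and PBS the list had medians of -0.024 in males and 0.034 in females, led by Nfyb (-0.15) and Marchf1 (0.12) in males and Rfx5 (-0.25) and Rfxap (0.14) in females, none of which passed.

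**Figure D4:**
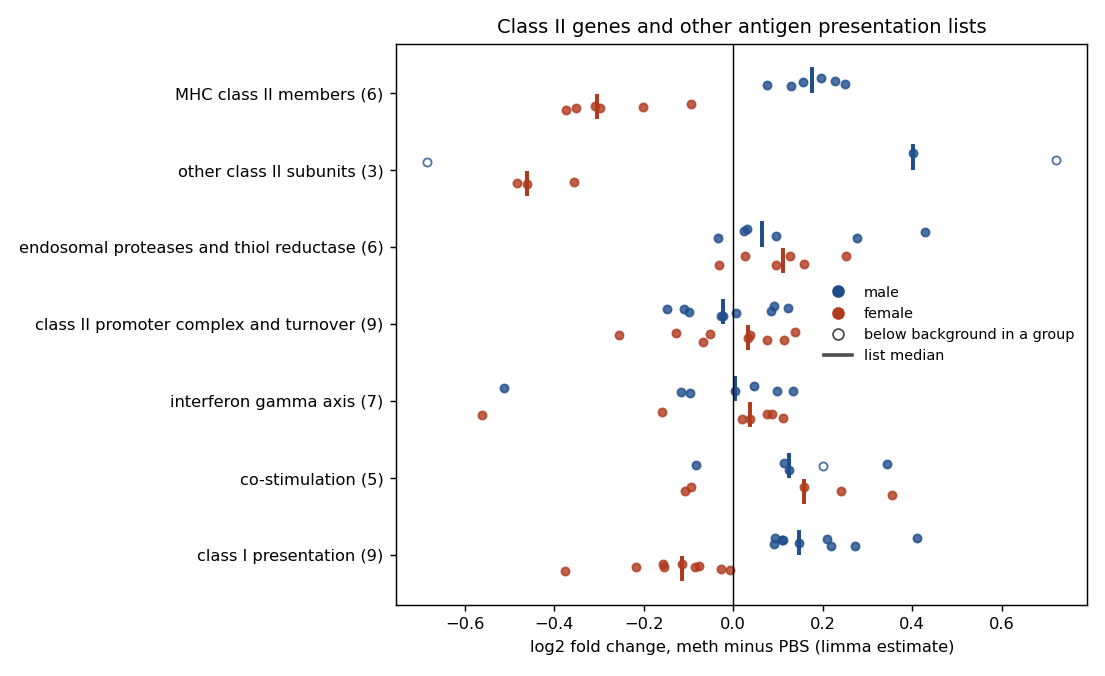
Log2 difference between meth and PBS hearts (x axis) for each gene of the class II members and 6 other antigen presentation lists (y axis, genes tested in brackets), in males and females, with a thick bar at the list median. Open circles are genes below background in a group compared. The class II and class I genes lie above 0 in males and below 0 in females, apart from Ciita under normexp and 1 or 2 class I genes under normexp or the shift by the median in females. Some class II signs also turned on the arrays of a single trial or without single mice. None of the genes plotted passed the test within a sex.

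The class I genes, which present peptides of the cell's own proteins, showed the same signs as class II. All 9 were higher in meth males (median 0.15) and 0 of 9 in meth females (median -0.11), and the male response exceeded the female one for 9 of 9 (median 0.29). In females 1 of 9 was higher under normexp and 2 of 9 under a shift by the median, and the male counts did not move. The largest were Nlrc5, the class I counterpart of Ciita (0.41, SE 0.20, well above background on 1 of 4 male PBS and 3 of 4 male meth arrays), and H2-K1 (0.27, SE 0.17) in males, and Tap1, a peptide transporter (-0.38, SE 0.17), and Psmb9, a proteasome subunit (-0.22, SE 0.17), in females. In PBS hearts 0 of 9 were higher in males (median -0.34; 1 of 9 under normexp or the shift by the median), with 5 of 9 at an unadjusted p under 0.05, beside 15.2% of all probes, and 0 passing. The male and female responses and the PBS comparison share their PBS arrays.

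Among the other class II subunits H2-Oa, a chain of the H2-O molecule that holds back H2-DM, measured -3.77, -3.48, -3.73 and -3.40 in male PBS and -3.17, -2.21, -3.97 and -3.43 in male meth hearts. Its log2 difference was 0.40 (SE 0.27) in males and -0.46 (SE 0.29) in females. H2-Ob was well above background on no male array and H2-DMb2 on no male PBS array, so no fold is given for them there, and H2-Eb2 was above it on no array with its brightest probe and on 1 female PBS array with the other. H2-Ea was matched to no probe.

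The interferon gamma axis had medians of 0.0043 in males and 0.038 in females. Its largest difference in each sex was that of Socs1, an inhibitor of that signal, at -0.51 (SE 0.18) in males and -0.56 (SE 0.19) in females, followed by Ifngr1 (0.13) in males. For the mean of both sexes Socs1 was at -0.54 (SE 0.13), just outside the threshold (limma adjusted p = 0.0504), and with the replicate block it passed (-0.49, limma adjusted p = 0.0370). The endosomal proteases were led after Ifi30 by Ctss, which cuts the invariant chain, in males (0.28, SE 0.13) and Lgmn in females (0.16, SE 0.086). The co-stimulation list was led after Icosl by Cd86 in females (0.24, SE 0.17), and Cd80, next in males, was above background on no male PBS array.

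The markers of cells that carry class II were read on the same arrays. All 9 macrophage genes with a probe were well above background on every array, with a summed linear level, relative to the 75th percentile of the array, of 24.1 to 32.6 in male PBS, 28.0 to 34.0 in male meth, 31.0 to 34.0 in female PBS and 28.7 to 41.0 in female meth hearts. The mean deviation of these 9 genes tracked that of the class II genes at r = 0.82 over 15 arrays (0.85 over 13, without female meth mice 2 and 4), and lay at 0.27, -0.20, -0.25 and 0.19 in female meth mice 1 to 4. In the meth response 8 of 9 were higher in each sex (medians 0.17 in males and 0.082 in females; 7 or 8 of 9 in males and 6 to 8 of 9 in females under 3 other scalings), while the class II genes were below PBS in females. The exception was Cx3cr1, a chemokine receptor of monocytes and resident macrophages, which fell by 0.58 for the mean of both sexes (SE 0.14, limma adjusted p = 0.0443) and passed in 11 of 30 alternatives, though not with the replicate block (limma adjusted p = 0.0696).

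Of the B cell markers, 3 of 6 were above background on every array in 3 of the groups and 4 of 6 in male PBS hearts, and Pax5 and Blk on none. The 4 tested gave a median of -0.41 in females, 0 of 4 higher, led by Cd79a (-0.45, SE 0.24), and 3 of 4 higher in males, led by Ms4a1 (0.36, SE 0.33), while under normexp 2 of 4 were higher in females. The summed B cell level was 1.16 to 1.65 in male PBS and 0.987 to 2.67 in male meth hearts. It was 1.21 to 1.37 in female PBS and 0.789 to 1.19 in female meth hearts. The sum includes Pax5 and Blk. The list's deviations followed the class II genes less closely than those of macrophages (r = 0.37, and -0.055 without female meth mice 2 and 4), and the difference between the lists was not tested. Dendritic cell markers gave r = 0.68, and 0.47 without female meth mice 2 and 4. Of these markers 4 of 7 were above background on every array in each group, and Cd209a was above it on none.

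Of the 7 T cell and thymocyte markers with a probe, 2 were above background on every array in male PBS and in female meth hearts. In male meth and in female PBS hearts it was 5. Cd4 was above it on no male array and Rag1 on no array. Of the 6 tested, 6 were higher in meth males (median 0.32), led by Dntt at 0.51, above background on 3 of 4 male PBS arrays, and Lck at 0.45. In meth females 2 of 6 were higher (median -0.37), led by Cd8a at -0.45, above background on 2 of 4 female meth arrays, and Lck at -0.39. None passed in either sex. The female direction turned under normexp, where 6 of 6 were higher, and stayed at 2 of 6 under quantile normalization and the shift by the median, while in males 5 of 6 were higher under normexp or quantile normalization. Their deviations tracked the class II genes at r = 0.45, and at -0.49 without female meth mice 2 and 4. The mean of the airway epithelial genes also moved with the class II average (r = 0.73, and 0.61 without female meth mice 2 and 4). By gene, r ran from -0.27 for Foxj1 and 0.21 for Krt5 to 0.82 for Bpifa1. The airway genes were called in their own right, 4 of 5 in males and 2 of 5 in females. Their summed level was 0.0824 to 0.108 in male PBS, 22.8 to 127 in male meth, 1.04 to 2.33 in female PBS and 0.479 to 2.23 in female meth hearts, with Bpifa1, Reg3g, Foxj1 and Epcam below background in all PBS hearts. The male meth array highest in airway genes, trial 1 mouse 2, was also the highest of its group in the class II average. It lay above the group mean for 4 of 6 class II genes, and below it for H2-Ab1 (-0.060) and Cd74 (-0.0012). From highest to lowest, the airway deviations of the male meth arrays were 1.25, -0.091, -0.37 and -0.80. The deviations of the class II average on these arrays, in the same order, were 0.077, 0.036, -0.029 and -0.083. The mean of the cardiomyocyte list ran the other way (r = -0.61, and -0.43 without female meth mice 2 and 4). By gene, r ran from -0.71 for Actc1 to 0.015 for Myl2 and 0.36 for Pln. The part of these cell types in the class II values was not tested.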

How the data were processed

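The authors labelled total heart RNA with Cy3, hybridised it to Agilent Mouse GE 4x44K arrays and extracted spot intensities with Feature Extraction (10.5.1.1 in the file headers, 9.1 in the submitters' processing notes). The deposited intensity is background-subtracted and not normalized between arrays, and flags mark outlier spots and spots well above background. The authors also deposited a log2 table, which equals the log2 intensity plus a constant for each array, and it was used as an alternative. Their scale and centring follow from that match, to within 0.05 for over 99.9% of probes.

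Control spots and outlier-flagged spots were dropped, repeated spots were averaged in log2, and the 75th percentile of all remaining probes was subtracted from each array. A probe was kept when 3 or more of the 15 arrays had it well above background. Between 61.4% and 71.4% of probes were well above background per array, and the 75th percentile of the intensity was 438 to 589 on slide 4 against 307 to 403 elsewhere. Precision is limited by how many arrays there were. Symbols came from RefSeq by accession (27196 probes with 1 symbol, 18535 genes).

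All 15 arrays were fitted with limma 3.58.1 (lmFit, eBayes) in R 4.3.3, with 4 groups and the trial of the title as covariate, two-sided, with the Benjamini-Hochberg adjustment taken across every tested probe and a call at 0.05. The fit was tested on simulated data. Exact permutation tests, two-sided, enumerated all regroupings and cannot go below 0.0286. The methods' t-test and the other alternatives are given in the closing section. Which meth and PBS arrays form a pair is not stated in the labels or the methods, so the replicate number was used. Same-numbered meth and PBS arrays shared a slide. Their deviations from the group means correlated at 0.173 to 0.320 in males and 0.246 to 0.618 in females over 28320 probes. Differently numbered arrays of a slide were not compared in this way. Female meth mouse 4 has no same-numbered PBS array. Pathway and marker lists are described by counts and medians. Named genes are the members, list genes past the threshold or with the 2 largest differences of a list within a sex, markers below background, and the 10 genes most like the members; 2 genes that this rule names are not reported here. The members and lists were chosen with earlier results of these data known. Whether the mice of a group came from separate litters is not given in the sources used here.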

Additional observations from a re-analysis of the deposited data

How the results depend on the processing

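The count of class II genes passing the threshold was 0 in each comparison that an alternative was run for, over normexp background correction, quantile normalization, a shift by the median, no filter, a filter asking for all 15 arrays, the authors' table, outlier spots kept, no trial term, the trial of the other label field, slide or scan session as a block, only the groups compared (4 comparisons), trial 1 alone, male trial 2 alone (males), the mean of a gene's probes, each replicate left out (4 comparisons each), the methods' t-test (within each sex) and, chosen after seeing the data, no slide 4 arrays. With the replicate block 0 genes passed in the 4 comparisons it could be fitted to, and the female median went from -0.30 to -0.44. The PBS and meth comparisons between the sexes could not be fitted with it. The shift by the median moved the median of all probes for the difference between the sexes from -0.015 to -0.12.

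Signs turned in trial 1 alone for the male response of H2-Aa (-0.011), H2-Ab1 (-0.043), H2-DMa (-0.00077) and Cd74 (-0.012), and in male trial 2 alone for Ciita (-0.050). With normexp the female response of Ciita was 0.13 and its difference between the sexes -0.11. With each mouse left out in turn, the female response ran from -0.46 to 0.064 for Cd74 and from -0.27 to 0.090 for Ciita, and the difference for Ciita from -0.015 to 0.34. It turned without female meth mouse 2 for all of these and without female PBS mouse 3 for the female response of both genes (0.029 and 0.017). The cause was not tested.

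The count of pathway genes passing went from 0 to 1 in males with slide or scan session as a block, with only the groups compared and without slide 4, and in females with scan session as a block. For the mean of both sexes it went from 2 to 0 with normexp, quantile normalization, no filter, no trial term or trial 1 alone, to 1 with the replicate block (Socs1) or without slide 4, and ran from 0 to 2 with each mouse left out. Between meth hearts it went from 1 to 0 with normexp, the shift by the median, no filter, only the groups compared, trial 1 alone, the mean of a gene's probes and without slide 4, to 2 with slide or scan session as a block, and ran from 0 to 1 with each mouse left out. Over all probes the counts called also moved with the setting, in males from 314 to between 0 (paired t-test) and 667 (scan session as a block), in females from 215 to between 0 and 508, and for the difference between the sexes from 39 to between 0 (replicate block) and 65.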
